A study of Mus musculus with 13 samples.

Results

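Untreated secondary mouse embryonic fibroblasts of 2 reprogrammable lines, 6C and 1B, were compared with parental fibroblasts before any reprogramming factor was switched on. The comparison uses 3 of the 13 exon arrays of the series: 6C at day 0 without doxycycline (Dox), 1B at day 0 without Dox, and untreated parental fibroblasts, 1 array each. The Dox arrays of the series were given 1.5 µg per ml. All cells were grown in mouse embryonic stem cell medium and split every 2 to 3 days, and their total RNA was extracted with a column kit. The labels used here give no strain, embryonic age, sex or passage, and do not say whether the parental cells carry the inducible factors or whether each line is a single clone.

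In a secondary system, induced pluripotent stem (iPS) cells made with Dox-inducible factors are placed in an embryo, and fibroblasts are then taken from that embryo. Such fibroblasts carry the factor genes in all their cells, and Dox turns them on together. Fibroblasts from mouse embryos are a mixed population: they make collagens and proteoglycans, keep position-related transcription factors such as Hox genes, and can include precursors of cartilage, tendon, bone and smooth muscle. An untreated line is the starting point from which each day of Dox is read.

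Values are deposited log2 levels per transcript cluster, so a difference of 1 is 2-fold, and a level cannot be set against that of another gene. With 1 array a condition no line can be tested alone, and a cluster was counted as apart when it differed by more than 2-fold from the parental array. The 2 differences share that one parental array. The array names also place the samples in separate runs: 6C day 0 in run 1, 1B day 0 in run 3 and the parental array in run 2, so run and group cannot be told apart. The 6C day 0 array was the dimmest, with a median of 6.34 and a 75th percentile of 8.50, against 6.56 and 8.95 for 1B day 0 and 6.61 and 8.98 for the parental array. Its array name speaks of day 2 without Dox, while its label says day 0. The label was followed.

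The cells carried the marks of fibroblasts. Of 24 measured fibroblast identity genes, 23 stood higher in all 3 untreated arrays than in both iPS arrays, and 22 of 23 pluripotency genes stood lower. None of the 7 measured red blood cell genes was over 2-fold apart in either line. The Y-linked gene Eif2s3y had levels of 9.53 in 6C, 10.12 in 1B and 9.36 in parental cells, and Kdm5d 7.41, 6.92 and 7.56. Xist was not measured by a cluster with 1 symbol.

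Of 23332 clusters, 6C was over 2-fold higher than parental cells at 876 (3.75%) and lower at 3253 (13.9%). The 1B line was higher at 1294 (5.55%) and lower at 1487 (6.37%). The 6C counts moved with scaling: 21.2% of its calls were higher on the deposited values, 43.1% after quantile normalization and 45% with each array centred on its median. In 1B these shares were 46.5%, 47% and 51.1%. The median over all genes with 1 symbol was -0.17 in 6C on the deposited values and 0.11 after quantile normalization.

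Both lines were lower at 1065 clusters (4.56%) and higher at 379 (1.62%). The shared lower clusters made up 32.7% of those lower in 6C and 71.6% of those lower in 1B. The shared higher ones made up 43.3% of those higher in 6C and 29.3% of those higher in 1B. In 6C alone 2118 clusters were lower (9.08%) and 493 higher (2.11%), and in 1B alone 418 were lower (1.79%) and 845 higher (3.62%). The lines lay on opposite sides of the parental level at 70 clusters with 6C lower (0.3%) and at 4 with 6C higher (0.0171%). The remaining 17940 clusters stayed within 2-fold in both lines.

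**Figure D1:**
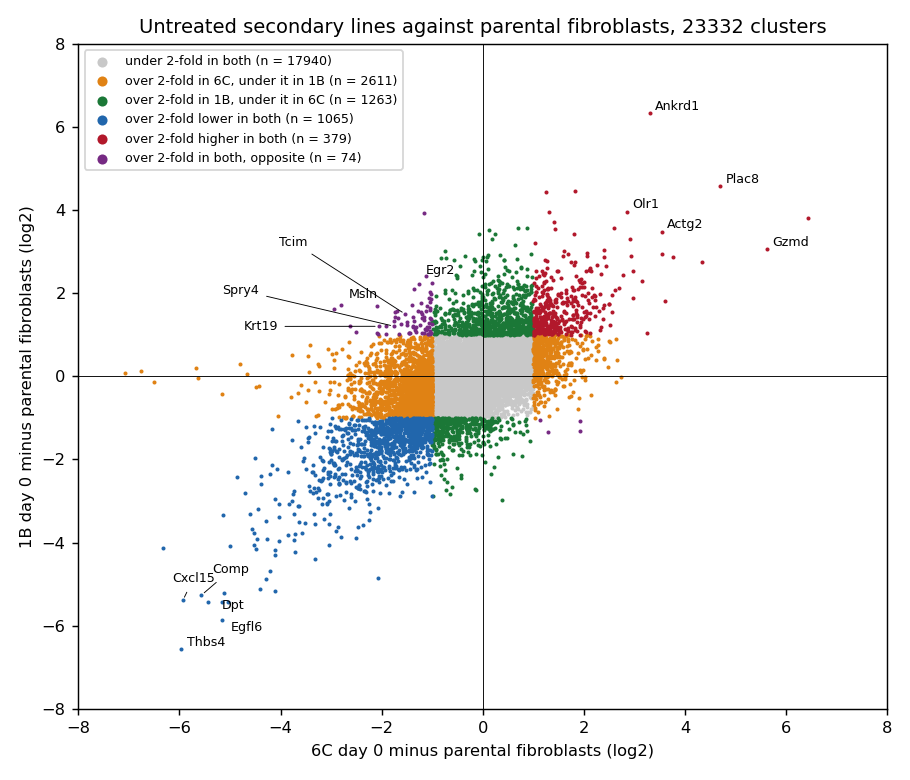
Difference of 6C day 0 (x axis, log2) and of 1B day 0 (y axis, log2) from the parental array, 1 point per cluster (23332 points). Blue and red points are the 1065 clusters lower and the 379 higher in both lines, orange the 6C-only and green the 1B-only clusters, and purple those on opposite sides. Both axes subtract the same parental array.

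Among genes with 1 symbol, of which 14860 were measured, 658 were lower in both lines (4.43%) and 179 higher in both (1.2%). In 1B alone 356 genes were higher (2.4%), and 1 gene was higher in 6C and lower in 1B (0.00673%). The edge of the shared lower class ran between Med18 and Ndufb11. Med18, a Mediator subunit gene, lay just inside with differences of -1.07 in 6C and -1.0003 in 1B. Ndufb11, of respiratory complex I, lay just outside with -1.54 and -0.9996. Among higher genes, Ckap2 lay just inside with 1.014 and 1.002, and Ska3, a kinetochore gene, just outside with 0.999 and 1.07.

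The genes furthest below the parental level in both lines included matrix genes of cartilage and tendon such as Thbs4, Comp and Cnmd, beside genes of other kinds. Thbs4, a thrombospondin of tendon matrix, had levels of 5.86 in 6C and 5.26 in 1B, against 11.82 in parental cells, which is a difference of -5.97 and -6.57. A bulk array cannot tell fewer cells of a type from less RNA per cell, here or at the genes below. Comp, the cartilage oligomeric matrix protein and also a thrombospondin, stood at 6.34 and 6.64 in the lines and 11.90 in parental cells. For both genes the secondary arrays lay within 0.7 of each other and over 5 below the parental array. Thbs1, the best known member of that family, had levels of 13.91 in 6C, 13.92 in 1B and 13.87 in parental cells. Thbs2 stood at 12.56 and 11.67 in the lines against 13.16, and Thbs3 at 8.11 and 8.67 against 9.36, so 2 of the 5 measured thrombospondins were lower in both lines. This family was looked up after the values were seen.

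Small secreted and matrix genes followed. Dpt, which encodes the decorin-binding dermatopontin, had levels of 5.51 in 6C and 5.52 in 1B, against 10.95 in parental cells. Cnmd, the cartilage angiogenesis inhibitor chondromodulin, stood at 4.59 and 4.31 against 9.75. Lum, the collagen-binding proteoglycan lumican, stood at 8.26 and 7.80 against 12.48. The lines were close to each other at each of these genes. Egfl6, a secreted protein with epidermal growth factor repeats, measured 5.25 and 4.55 in the lines and 10.41 in parental cells, and the chemokine gene Cxcl15 5.56 and 6.10 against 11.49. Sfrp2, a secreted Wnt-binding protein, measured 7.78 and 7.67 against 12.89.

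The other 7 of the 15 genes with the largest shared deficit differed by at least 3.95 in both lines. Islr, a surface marker of mesenchymal stromal cells, had levels of 7.77 in 6C and 8.25 in 1B, against 12.30 in parental cells. Clec11a, a secreted growth factor of bone stroma, stood at 6.85 and 5.78 against 10.95. Genes of nerve cells were also in this group. Lrrtm3, a synaptic adhesion protein gene, measured 5.63 and 5.06 against 9.93, and Sncaip, which encodes an alpha-synuclein-binding protein, 4.39 and 4.71 against 8.87. The remaining members were Ecrg4 (5.85 and 5.65 against 9.95), Galnt9, a sugar transferase gene (6.06 and 6.97 against 11.05), and Plppr1 (4.70 and 4.77 against 8.72).

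**Figure D2:**
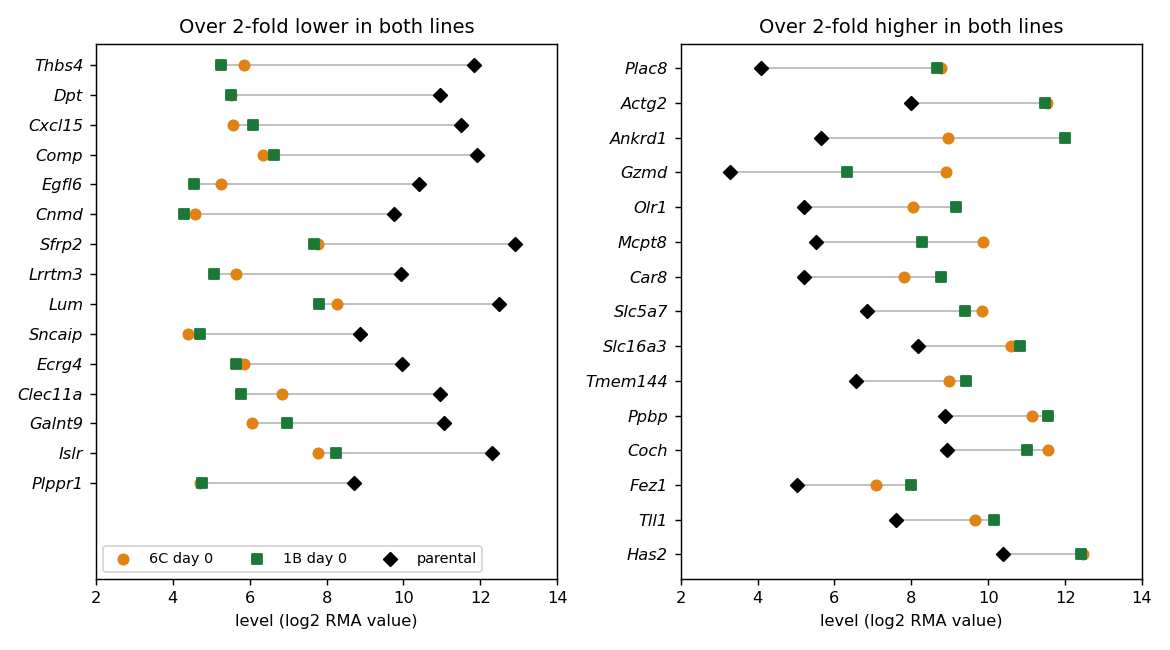
Levels (log2 RMA value, x axis) of the 15 genes furthest below (left) and the 15 furthest above (right) the parental array in both lines. Circles are 6C day 0, squares 1B day 0 and diamonds the parental array, 1 array each. In the left panel both secondary arrays sit at least 3.95 below the diamond, and in the right panel at least 2.01 above it.

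The cartilage and tendon list held 28 measured genes of 32, of which 20 were lower in 6C, 20 in 1B and 19 in both, and none was higher. Over all genes with 1 symbol, 11.9% were lower in 6C, 5.6% in 1B and 4.43% in both. The list's median difference was -2.20 in 6C and -2.11 in 1B, against -0.17 and 0.01 over all genes. Sox9, the transcription factor that directs cartilage formation, had levels of 8.78 in 6C and 8.74 in 1B, against 10.93 in parental cells. Its partners Sox5 and Sox6 stood lower as well, Sox5 at 6.06 and 7.89 against 10.13. Acan, the main cartilage proteoglycan, measured 6.90 and 6.07 against 9.14. Scx, a transcription factor of tendon precursors, measured 8.35 and 9.11 against 10.50. Among proteoglycan genes, Epyc stood at 3.79 and 3.71 against 7.89, Kera at 4.78 and 4.58 against 8.36, and Prg4, the joint lubricant, at 5.97 and 7.82 against 10.17.

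Bone genes showed the same side. Of 11 measured, 7 were lower in both lines, where 4.43% of all genes were. The median differences were -1.32 in 6C and -1.56 in 1B. Ibsp, a mineral-binding bone matrix protein gene, had levels of 3.96 in 6C and 3.74 in 1B, against 7.69 in parental cells. Sp7, the osteoblast transcription factor, stood at 5.82 and 5.22 against 7.49, and Phex, which acts in phosphate handling, at 4.53 and 4.59 against 7.58. Pparg, the adipocyte regulator, was the 1 adipocyte gene of 13 that was lower in both lines, at 7.12 and 8.74 against 10.19.

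By median, the general fibroblast genes were closer to the parental level than the cartilage and bone genes. Of 24 measured, 7 were lower in 6C, 8 in 1B and 6 in both lines, where 11.9%, 5.6% and 4.43% of all genes were. After quantile normalization 3 were lower in 6C. The medians on the deposited values were -0.39 in 6C and -0.46 in 1B. Dcn, the proteoglycan decorin, stood at 10.19 in 6C and 9.37 in 1B, against 13.10 in parental cells, and Pdgfra, a receptor for platelet-derived growth factor, at 8.72 and 8.42 against 11.73. Postn, encoding periostin, measured 12.22 and 11.05 against 13.35. Col6a1 and Col6a2 were the other collagens of the shared lower group on this list, and Col1a1 differed by 0.06 in 6C and -0.44 in 1B. The other 18 of the 24 genes, Col1a1 among them, were not over 2-fold lower in both lines.

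Wnt proteins bind Frizzled receptors, and secreted Sfrp and Wif proteins can bind Wnt proteins and hold them off. Of 27 measured Wnt pathway genes, 17 were lower in 6C, 15 in 1B and 15 in both, with none higher. Over all genes the lower shares were 11.9%, 5.6% and 4.43%. The list medians were -1.37 in 6C and -1.28 in 1B. After quantile normalization the 6C median was -0.98, with 13 genes lower. Among receptors, Fzd4 had levels of 7.30 in 6C and 8.04 in 1B, against 10.47 in parental cells. Among genes of secreted modulators, Dkk2 stood at 8.35 and 9.03 against 10.53, Dkk3 at 9.99 and 9.43 against 11.61. Wif1 stood at 5.85 and 6.06 against 7.91. Feedback targets lay lower too: Axin2 at 6.50 and 6.10 against 7.86, and Notum, an enzyme that inactivates Wnt proteins, at 5.79 and 5.73 against 7.96. Of the 5 measured Sfrp family genes, 3 (Sfrp1, Sfrp2 and Frzb) were lower in both lines.

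The insulin-like growth factor (IGF) list had 10 measured genes, of which 6 were lower and 1 higher in both lines. Over all genes these shares were 4.43% and 1.2%. Igf2, the fetal ligand, stood at 10.44 in 6C and 10.10 in 1B, against 12.73 in parental cells, and Igf1 at 6.55 and 6.05 against 8.07. The binding proteins, which carry and restrain the ligands, lay on both sides of the parental level. Igfbp5 measured 9.67 and 8.61 against 12.47, Igfbp3 8.14 and 10.18 against 12.31, and Igfbp4 10.24 and 9.14 against 12.32. Igfbp7 was the exception, at 12.09 and 12.26 against 10.91. Igf2r, the receptor that removes Igf2, stood at 11.42 in 6C and 8.90 in 1B, against 11.25 in parental cells, so it was low in 1B alone.

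Bone morphogenetic protein (BMP) antagonists were among the shared lower genes. Nog, encoding noggin, had levels of 4.62 in 6C and 5.88 in 1B, against 7.57 in parental cells, and Chrdl1, a chordin-like antagonist, 5.76 and 5.25 against 8.41. The ligand gene Bmp2 stood at 5.31 and 5.65 against 7.57. Across the 20 measured BMP genes 9 were lower in 6C, 5 in 1B and 4 in both, where 11.9%, 5.6% and 4.43% of all genes were. In the transforming growth factor beta list 3 of 21 were lower in both, among them Tgfbi, a matrix protein, at 9.21 and 9.71 against 11.31.

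**Figure D3:**
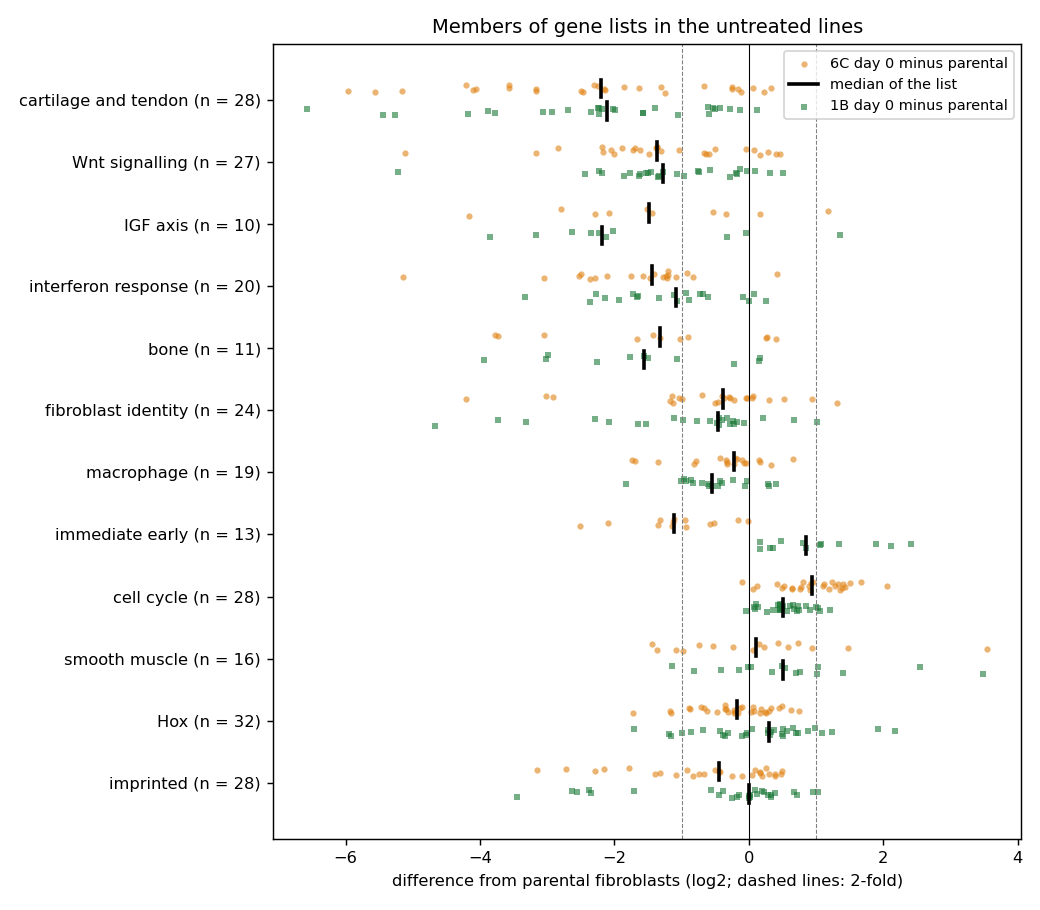
Differences from the parental array (log2, x axis) of the measured members of 12 gene lists, with 6C day 0 as circles above and 1B day 0 as squares below in each row. Black bars are list medians and dashed lines mark 2-fold. Cartilage and tendon genes have medians of -2.20 and -2.11, and immediate early genes -1.12 in 6C and 0.86 in 1B.

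Interferon response genes stood lower in both lines more often than the inflammation genes did, by count. These genes answer virus sensing and type I interferon, through factors that bind an element in their promoters. Of 20 measured, 17 were lower in 6C, 11 in 1B and 11 in both, where 11.9%, 5.6% and 4.43% of all genes were. The medians were -1.44 in 6C and -1.09 in 1B. After quantile normalization 12 were lower in 6C. Ifit1, which binds viral RNA, had levels of 3.56 in 6C and 5.38 in 1B, against 8.70 in parental cells. Rtp4 stood at 6.31 and 7.01 against 9.36, and Irf7, a regulator of interferon genes, at 6.24 and 6.68 against 8.60. Oasl2, of the oligoadenylate synthetase family, measured 5.73 and 5.88 against 8.02, Mx2, an antiviral GTPase gene, 3.66 and 3.92 against 6.18, and Gbp3, a guanylate-binding protein gene, 5.16 and 5.99 against 7.65.

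Where RefSeq gave a promoter, the shared lower interferon genes were searched for a single element. Dhx58, Mx1, Mx2 and Rtp4 had no promoter entry and were not searched. The core of the interferon-stimulated response element, written as TTTC, any 2 bases and TTTC again, was searched in the 250 bases before the start site on both strands, so that it reads GAAA, any 2 bases and GAAA on the other strand. It was present in 5 of the 7 shared lower interferon genes with a RefSeq promoter (71.4%). Of all measured interferon genes with a promoter, 8 of 14 held it (57.1%). The same letters were in 395 of 11894 array genes with a promoter (3.32%) and in 978 of all 32851 promoters (2.98%). The 100 bases holding the matches are given 5′ to 3′ on the gene's strand, from RefSeq on build GRCm38.p6, with the matches in capitals.
Ifit1, chr19:34640785-34640884, plus strand: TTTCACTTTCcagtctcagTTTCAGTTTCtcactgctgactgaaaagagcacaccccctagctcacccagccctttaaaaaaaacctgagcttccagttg
Gbp3, chr3:142559944-142560043, plus strand: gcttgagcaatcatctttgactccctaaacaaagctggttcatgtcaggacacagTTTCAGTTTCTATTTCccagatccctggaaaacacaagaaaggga
Bst2, chr8:71537503-71537602, minus strand: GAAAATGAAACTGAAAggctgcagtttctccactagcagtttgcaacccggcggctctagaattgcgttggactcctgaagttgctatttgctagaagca
Cxcl10, chr5:92349003-92349102, minus strand: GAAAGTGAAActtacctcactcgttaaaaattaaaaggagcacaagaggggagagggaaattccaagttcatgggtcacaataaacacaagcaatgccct
Trim30a, chr7:104465194-104465293, minus strand: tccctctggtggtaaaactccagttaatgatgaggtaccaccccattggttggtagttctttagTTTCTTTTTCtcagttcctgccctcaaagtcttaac

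In Ifit1 the matches began 104 and 85 bases before the start site, without overlap. In Gbp3 (45 and 39 bases before) and Bst2 (130 and 124 bases before) 2 matches overlapped. The promoters of Irf7 and Oasl2 did not hold these letters. Bst2, encoding tetherin, had levels of 8.09 in 6C and 7.57 in 1B, against 9.29 in parental cells. Cxcl10, a chemokine gene, stood at 6.04 and 6.24 against 7.31, and Trim30a at 4.47 and 4.38 against 5.71. A match is a description of the letters and not a measured site.

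Macrophages also express interferon genes, and the macrophage markers were measured beside them. Of 19 macrophage genes, 3 were lower in 6C, 2 in 1B and 2 in both, where 11.9%, 5.6% and 4.43% of all genes were. The 6C count is near its share. Those lower in both were Adgre1 (4.98 and 4.84 against 6.67) and Mrc1 (4.65 and 5.38 against 6.38). The log2 of the summed macrophage levels was 10.5 in 6C, 10.4 in 1B and 10.9 in parental cells, with 12.05 in primary iPS cells. Their part in the interferon difference was not tested. Of 26 inflammation genes 5 were lower and 3 higher in both lines, where 4.43% and 1.2% of all genes were. Lcn2, an iron-scavenging lipocalin gene, stood at 4.59 in 6C and 5.58 in 1B, against 8.34 in parental cells. The chemokine genes Ccl20 (7.75 and 7.71 against 5.60) and Ccl7 (11.27 and 11.05 against 9.83) lay on the higher side.

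Of 49 measured regional transcription factors, which mark limb and body position, 6 were lower in both lines and none was higher in both, where 4.43% and 1.2% of all genes were. Msx1, a limb and craniofacial homeobox gene, had levels of 7.47 in 6C and 6.40 in 1B, against 10.80 in parental cells. Lhx2, a limb bud homeobox gene, stood at 7.15 and 6.93 against 9.47. Both the forelimb factor Tbx5 (6.12 and 6.81 against 8.60) and the hindlimb factor Tbx4 (7.78 and 7.53 against 9.54) were lower. Among 32 Hox genes, 2 were lower in both lines, a share near that of all genes: Hoxd13, the most distal of its cluster, at 9.07 and 9.08 against 10.79, and Hoxa11 at 8.07 and 8.09 against 9.25. The Hox median was -0.18 in 6C, turning to 0.20 after quantile normalization and 0.09 after centring, and 0.30 in 1B.

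Imprinted genes are expressed from 1 parental allele. Of 28 measured, 4 were lower in both lines and none was higher in both, where 4.43% and 1.2% of all genes were. Cdkn1c, a growth-restraining cell cycle inhibitor, had levels of 7.80 in 6C and 7.50 in 1B, against 10.95 in parental cells. Dlk1 stood at 8.40 and 8.55 against 11.11. Igf2 and Dio3 were the others. The maternally expressed growth restrainers Igf2r and Grb10 were low in 1B alone, Grb10 at 11.89 in 6C and 10.35 in 1B, against 12.72 in parental cells. Peg3 was low in 6C alone, at 8.17 in 6C and 10.42 in 1B, against 10.33. The imprinted median was -0.44 in 6C and 0.01 in 1B.

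The genes furthest above the parental level in both lines formed a mixed set of contractile, secreted and transport genes. Plac8, a small cysteine-rich protein gene, had levels of 8.78 in 6C and 8.66 in 1B, against 4.08 in parental cells. Actg2, the gamma actin of smooth muscle, stood at 11.53 and 11.47 against 7.99. At both genes the secondary arrays lay within 0.13 of each other. Ankrd1, an ankyrin repeat protein of stretched muscle, measured 8.96 in 6C and 11.99 in 1B against 5.65, and Olr1, a receptor for oxidised lipoprotein, 8.04 and 9.16 against 5.20. Here 1B was the higher line.

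Serine protease genes of a cluster best known from lymphocytes and mast cells were also high. Gzmd, a granzyme, stood at 8.89 in 6C and 6.33 in 1B, against 3.27 in parental cells, and Mcpt8, a mast cell protease, at 9.86 and 8.29 against 5.53. A cluster annotated to both Gzmd and Gzme stood at 10.24 and 7.62 against 3.81. These genes have close copies whose probes may not separate them, so the member concerned is uncertain. Among 8 measured granzyme and mast cell protease genes 2 were higher in both lines, and Gzma and Gzmb lay within 0.5 of the parental level in both. The family was looked up after the values were seen.

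Transport, matrix and secreted genes made up most of the rest. Slc16a3, the lactate exporter, stood at 10.60 in 6C and 10.84 in 1B, against 8.17 in parental cells, and Slc5a7, the high-affinity choline transporter, at 9.83 and 9.38 against 6.86. Has2, which makes hyaluronan, measured 12.47 and 12.40 against 10.39, and Tll1, a procollagen-processing protease, 9.65 and 10.15 against 7.61. Coch measured 11.55 and 11.02 against 8.93, and the chemokine gene Ppbp 11.13 and 11.55 against 8.87. The other members were Car8 (7.80 and 8.78 against 5.21), Tmem144 (8.97 and 9.43 against 6.56) and Fez1, a nerve process gene (7.08 and 8.00 against 5.02).

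Smooth muscle genes, Actg2 among them, were divided, with more of them higher than lower in 1B. Of 16 measured smooth muscle genes 2 were higher and 3 lower in 6C, where 2.69% and 11.9% of all genes were. In 1B 5 were higher and 1 lower, where 3.73% and 5.6% of all genes were. Both lines shared 2 higher genes, where 1.2% of all genes were, and 1 lower gene. Myh11, the smooth muscle myosin, had levels of 7.75 in 6C and 8.82 in 1B, against 6.27 in parental cells, while Smtn, encoding smoothelin, stood at 9.49 and 9.72 against 10.86. Of 17 skeletal muscle genes, Acta1, the skeletal actin, was higher in both lines, at 10.21 and 11.03 against 8.93. Ncam1, a cell adhesion gene on the neural list, stood at 11.48 and 11.17 against 9.63.

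Cell cycle genes were higher most clearly in 6C. Of 28 measured, 13 were over 2-fold higher in 6C, 3 in 1B and 3 in both, where 2.69%, 3.73% and 1.2% of all genes were, and none was lower. The median was 0.94 in 6C and 0.50 in 1B, and the 6C median was 1.40 after quantile normalization, with 23 genes higher. Aurka, a mitotic kinase, had levels of 10.56 in 6C and 9.50 in 1B, against 8.50 in parental cells, and Plk1, another mitotic kinase, 10.35 and 9.53 against 8.68. Neither was over 2-fold higher in 1B. Those higher in both lines were Tpx2, Kif20a and Bub1, of the spindle checkpoint, at 8.63 and 8.56 against 7.35.

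Genes apart in 1 line were named from those within 0.5 of the parental level in the other. These classes rest on the day 0 arrays, and other arrays of the same line lay closer to the parental level. Clusters lower in 6C alone had a median difference of -1.31 at day 0 and -0.46 at day 2 of Dox. For those higher in 6C alone it was 1.20 and 0.64. In 1B at day 0 and after 5 days of Dox and 5 without, the 1B alone medians were -1.23 and -0.77 (lower) and 1.29 and 0.72 (higher). On the lower side of 6C, Efemp1, a fibulin of elastic matrix, had levels of 8.30 in 6C, 11.79 in 1B and 11.54 in parental cells. Ereg, an epidermal growth factor receptor ligand, stood at 8.96 in 6C, 12.07 in 1B and 11.62 in parental cells, and Id2, an inhibitor of helix-loop-helix factors, at 8.36, 10.78 and 10.96. In each case 1B and parental cells lay together. The secreted guidance gene Sema3c (7.81, 10.03 and 10.53), the nerve growth gene Nrn1 (8.87, 11.56 and 11.89), Arc (6.99, 9.62 and 10.03), Gda (5.85, 8.14 and 8.47), Retreg1, Rab27b (7.18, 9.45 and 9.48) and Tiparp (8.71, 10.71 and 10.94) followed the same order of arrays.

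On the higher side of 6C the differences were smaller. Lrrc15, a membrane protein of activated fibroblasts, stood at 9.19 in 6C, 7.20 in 1B and 6.79 in parental cells, and Kif26b, a kinesin family gene, at 9.95, 8.11 and 7.96. Mitotic genes were among them: Ccna2 (10.77, 9.81 and 9.53), Prc1 (11.28, 10.42 and 10.07), Aurkb (9.16, 8.52 and 8.06) and Iqgap3 (8.69, 7.40 and 7.45) are the named examples. The others were Mrto4, Gsta4, Prr11 and Mettl23.

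The 1B line alone had low Igf2r, described above, and low Cpxm2, a carboxypeptidase-like gene, with levels of 8.18 in 6C, 5.62 in 1B and 8.33 in parental cells. Aldh1a3, a retinoic acid-making enzyme gene, stood at 8.01 in 6C, 6.27 in 1B and 8.14 in parental cells, and the matrix gene Smoc2 at 10.50, 9.35 and 10.63. The other members were Nrep, Cmklr1, Vamp5, Creb1, Pkp1 and Nfatc4, with differences in 1B of -1.09 to -1.62.

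Genes high in 1B alone included feedback genes of stimulated cells. Csrnp1 had levels of 7.21 in 6C, 10.02 in 1B and 7.22 in parental cells, Dusp2, a phosphatase that ends kinase signals, 6.40, 8.44 and 5.98, and Tnfaip3, a brake on NF-kappaB, 7.09, 9.18 and 6.90. Ch25h, which makes an oxysterol, stood at 6.51 in 6C, 10.02 in 1B and 6.59 in parental cells, the largest difference of the group. The muscle enolase Eno3 (8.82, 11.22 and 8.76), Ampd3 (8.99, 10.97 and 8.66) and Hoxc5 (7.12, 8.80 and 6.62) were members too, with Prrg4, P2ry10b and Ccdc68. Il6, an inflammatory cytokine, was higher in both lines but mostly in 1B, at 4.98 in 6C and 8.16 in 1B, against 3.73 in parental cells.

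**Figure D4:**
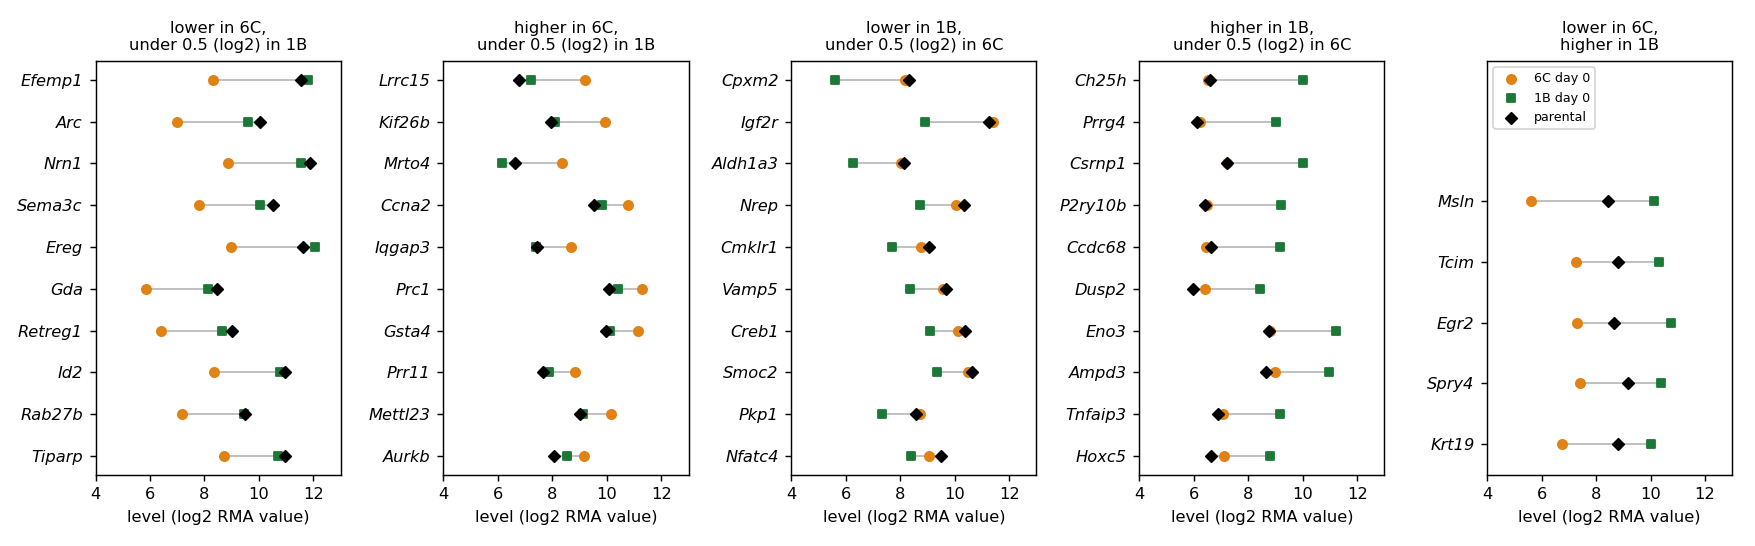
Levels (log2 RMA value, x axis) of the genes apart in 1 line and of those on opposite sides of the parental level. Circles are 6C day 0, squares 1B day 0 and diamonds the parental array. In the first 4 panels the array of the other line lies within 0.5 of the parental diamond, and in the last the diamond lies between the lines.

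The immediate early genes, which respond within minutes to serum, stress or handling, lay on opposite sides in the day 0 arrays of the lines. Of 13 measured, 7 were lower and none higher in 6C, while 6 were higher and none lower in 1B. Over all genes 11.9% were lower in 6C and 3.73% higher in 1B. The list medians were -1.12 in 6C and 0.86 in 1B. With 6C lower and 1B higher, 4 genes were over 2-fold apart in both, where 0.128% of all genes were. Egr3, a zinc finger factor, had levels of 6.47 in 6C and 10.06 in 1B, against 8.99 in parental cells. Atf3, a stress factor, stood at 6.21 and 9.75 against 7.33, Nr4a1, a nuclear receptor, at 9.59 and 12.73 against 11.68, and Egr2 at 7.29 and 10.75 against 8.64. After quantile normalization the 6C median was -0.64, with 2 genes lower. In 1B after withdrawal the median was -0.08. Of the remaining genes on opposite sides, Msln, the mesothelial marker mesothelin, measured 5.62 and 10.14 against 8.42, and the keratin Krt19 6.76 and 10.02 against 8.82. Of the 7 measured mesothelial genes Gpm6a was lower in both lines, and of 21 epithelial genes Krt18 also lay on opposite sides.

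The 4 reprogramming factor genes were not over 2-fold higher than in parental cells in either line. The cluster of Pou5f1, encoding Oct4, had levels of 4.74 in 6C and 5.58 in 1B, against 6.46 in parental cells, and that of Sox2 5.08 and 7.36 against 7.53. Klf4 stood at 8.54 and 9.37 against 9.43, and Myc at 10.44 and 11.51 against 11.22. The 6C array was thus the lowest of the 3 for all 4 genes. At day 2 of Dox in 6C the levels were 12.57 for Pou5f1, 6.46 for Sox2, 9.27 for Klf4 and 11.15 for Myc. At day 5 of Dox in 1B they were 13.16, 7.59, 9.27 and 10.39. Whether these probes read the introduced copies as well as the native genes was not tested. Of 23 pluripotency genes 4 were lower in both lines, Tdgf1, Nr0b1, Tfcp2l1 and Klf2, and none was higher in both. Over all genes these shares were 4.43% and 1.2%.

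None of 16 cholesterol synthesis genes was over 2-fold apart in either line. Of 16 hypoxia and glycolysis genes, 6 were higher in 1B and 1 in 6C, where 3.73% and 2.69% of all genes were, while Car9, a carbonic anhydrase induced by low oxygen, stood at 4.66 in 6C and 5.59 in 1B, against 8.42 in parental cells. Of 20 p53 target and cell cycle inhibitor genes, 6 were likewise higher in 1B and 1 in 6C, beside the same shares of all genes. Flt1 of 14 endothelial genes was higher in both lines, as were Mmp10 and Adamts12 of 19 matrix protease and inhibitor genes. In that list Mmp3 (8.86 in 6C and 8.17 in 1B, against 9.97 in parental cells) and the inhibitor Timp3 (11.16 and 12.04 against 13.18) were lower in both lines. Aldh3a1 of 14 oxidative stress genes was lower in both, as was Tapbp of 7 class I antigen presentation genes. Of all genes, 1.2% were higher and 4.43% lower in both lines, so single genes of such short lists say nothing about the lists.

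The other arrays show how these genes stood once Dox was given or withdrawn. All of these comparisons use the same parental array, so they do not test it. The 6C array at day 2 of Dox lies in run 2 with the parental array, and all 15 named lower genes and all 15 named higher genes were over 2-fold on the same side there. In 1B after 5 days of Dox and 5 without, 15 of 15 lower and 13 of 15 higher genes were. Over all shared lower clusters the median difference was -1.79 in 6C day 0 and -1.24 in 6C day 2, and -1.52 in 1B day 0 and -1.58 in 1B after withdrawal. Over all shared higher clusters it was 1.39 and 1.35 in 6C, and 1.54 and 1.27 in 1B.

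Along the Dox series of 6C the shared lower clusters came closest to the parental level at day 5. Their median difference was -1.24 on day 2 of Dox, -1.04 on day 5, -1.47 on day 8, -1.41 on day 11, -1.60 on day 16 and -1.75 on day 21. Of the 15 named genes, 14 had their highest level among the other 10 arrays at 6C day 5 or day 8. Lum, for example, had levels of 8.26 (day 0), 9.89 (day 2), 12.27 (day 5), 12.97 (day 8), 11.52 (day 11), 5.75 (day 16) and 5.48 (day 21), with 12.48 in parental cells. Egfl6 reached 11.32 and Dpt 9.98 at day 8. Thbs4 (8.43 at day 5) and Comp (7.32 at day 5) stayed far below the parental 11.82 and 11.90. In all 10 other arrays, 12 of the 15 genes were over 2-fold below the parental level.

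The named higher genes had no such common course. Plac8, Slc16a3, Tmem144 and Fez1 were over 2-fold above the parental level in all 10 other arrays, iPS cells included. Coch was above it in 1 of them, 6C day 2, with a level of 11.50 there and 5.78 in 1B at day 5. Gzmd stood at 10.96 and Mcpt8 at 10.73 in 1B after withdrawal, against 3.02 and 5.17 in 1B at day 5. The parental array was therefore over 2-fold lower than each of the others at 4 of these 15 genes.

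**Figure D5:**
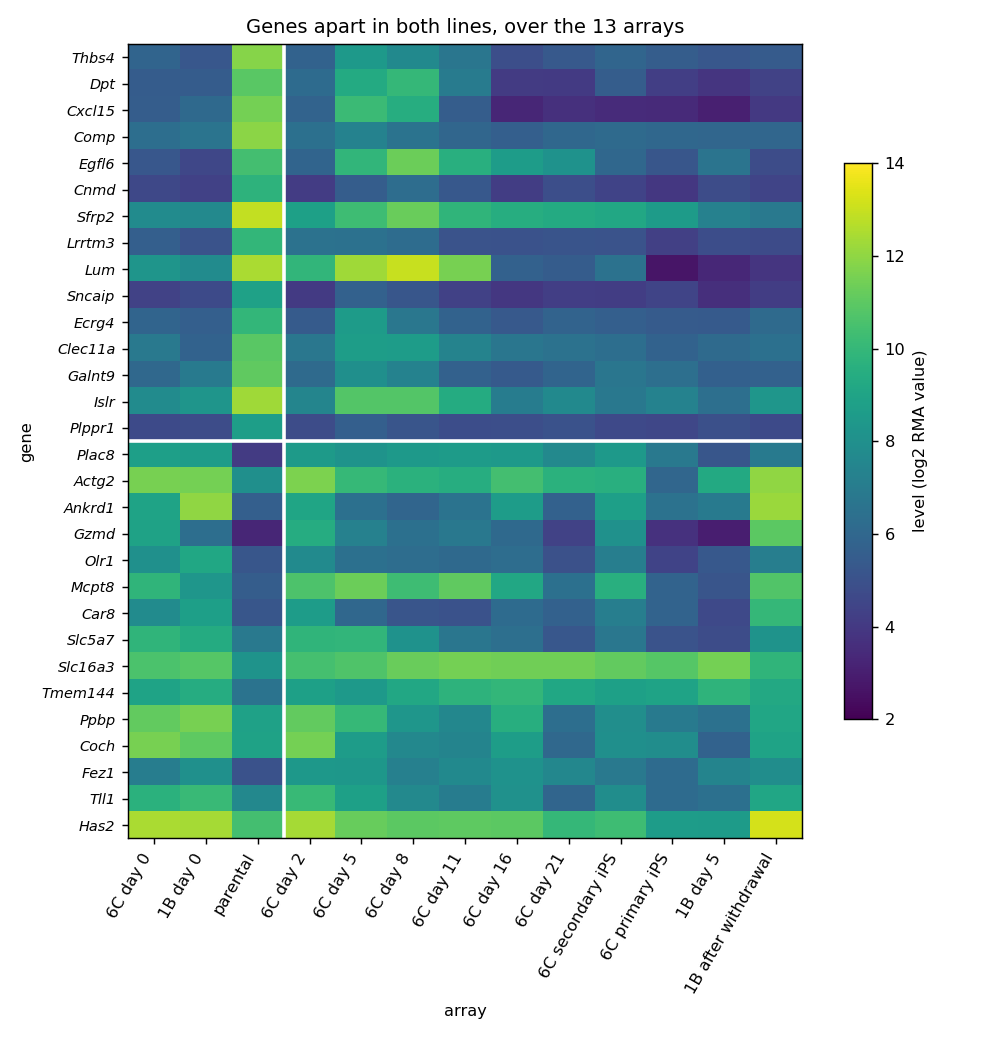
Levels (log2 RMA value, colour) of the 15 shared lower genes (upper rows) and 15 shared higher genes (lower rows) in all 13 arrays, 1 column each. The parental column is the brightest in most upper rows, and Lum and Egfl6 are bright again at 6C days 5 and 8. Slc16a3 and Tmem144 are brighter in every other column than in the parental one.

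Line differences at day 0 were set against arrays that the classes did not use, 6C and 1B at day 5 of Dox. Of 2593 clusters over 2-fold lower in 6C than in 1B at day 0, 685 (26.4%) were lower in 6C at day 5, where 11.3% of all clusters were, and 410 (15.8%) were higher, where 13.3% were. Of 566 clusters higher in 6C at day 0, 96 (17%) were higher at day 5, where 13.3% of all clusters were. Another 79 (14%) were lower, where 11.3% were. Over all clusters the correlation of the differences was r = 0.079 (Spearman's rho 0.059), given as a description. At day 5, 6C and 1B also lie in runs 2 and 3, so line and run cannot be told apart.

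By class, the named genes low in 1B alone were most often on the same side at day 5. Of these 10, 6 were over 2-fold lower in 1B than in 6C at day 5, where 13.3% of all clusters were. That share is over all clusters, not over genes named for a level of at least 8. Igf2r differed most, at 11.61 in 6C and 6.60 in 1B at day 5, with Nfatc4 at 9.21 and 6.06. In 1B, Igf2r stood at 8.90 at day 0 and 9.78 after withdrawal. Genes outside this class were also lower in 1B at day 5, such as Postn (12.13 in 6C and 5.56 in 1B) and Pdgfra (10.78 and 4.85). The count therefore does not show that a day 0 trait of 1B was kept. Lrrc15 (8.49 in 6C and 6.74 in 1B) and Kif26b (8.65 and 6.62) stayed higher in 6C. Among genes low in 6C alone, Id2 was lower in 6C at day 5 (8.82 and 10.97), while Efemp1 (11.68 and 7.91), Nrn1 (10.13 and 7.20) and Gda (9.77 and 5.68) were higher there. None of the 5 genes on opposite sides kept a difference over 2-fold in the same direction. Egr2 stood at 6.47 in 6C and 6.18 in 1B.

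The one test these 3 arrays allow sets the mean of both lines against the parental array by limma, with 1 residual degree of freedom from the difference between the lines. It called 0 clusters higher and 0 lower (0% each) at a Benjamini-Hochberg adjusted p under 0.05, with a lowest adjusted p of 0.725 by limma. At an unadjusted p under 0.05 by limma, 358 were higher and 1029 lower. Quantile normalization gave 0 and 0, centring 11 and 67, and leaving out the dimmer clusters 28 and 152. With the dimmer clusters left out, the fit gave every cluster the same variance, and its calls depend on that. The fit also assumes that the lone parental array varies like the lines. The genes above are therefore differences between single arrays, stated by size.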

How the data were processed

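RNA was measured on Affymetrix mouse exon arrays, 1 per condition. The authors deposited 1 log2 value per transcript cluster and array. They were computed with Affymetrix Expression Console by RMA, summarised per gene, on build mm9, per the submitters' processing notes, which give no versions. This method subtracts background, is meant to bring the arrays to a common distribution and compresses low values. The deposited arrays still differed in level, with medians of 6.34 in 6C day 0 and 6.61 in the parental array. No source used here states the log base, and 2 was inferred from the range, 0.461 to 14.3. Precision is limited by having so few arrays.

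Of 23332 clusters, 14996 had 1 symbol in the platform annotation, 1019 several and 7317 none, and 14941 symbols were updated by gene identifier to GRCm38.p6. Where a gene had several clusters (135 genes), its cluster with the highest average level across all 13 arrays was kept. Groups and runs came from the sample labels. Differences over 2-fold were counted with no test. limma 3.58.1 in R 4.3.3 fitted both lines against the parental array over all clusters. It was also run on simulated data with the same noise in every cluster and array. That run cannot show whether the lone parental array varies like the lines, which the fit assumes. Python 3.11.15 was used for the rest.

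The members, the 32 gene lists and the rules were chosen with earlier results of these data known. Named genes had 1 symbol and a highest level of at least 8: the 15 largest shared differences each way, the 10 largest in 1 line with under 0.5 in the other, the 5 largest on opposite sides and up to 6 of each list. Predicted, RIKEN and receptor-cluster names were left out. Other list members are printed to complete a count. Alternatives were quantile normalization, median centring, a filter (11666 clusters at or above a mean of 6.55), 3-fold and 1.5-fold thresholds, averaging a gene's clusters, and, chosen after seeing the data, 6C day 2 or 1B after withdrawal in place of day 0.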

Additional observations from a re-analysis of the deposited data

Results flagged for a closer look

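At 10 named genes the untreated lines lay on opposite sides of the parental level, each over 2-fold away, with 1 day 0 array a line. Other arrays of the lines did not keep these sides at every gene: Msln stood at 8.93 in 6C at day 2 and at 6.32 in 1B after withdrawal, against 8.42 in parental cells. The difference of 6C day 0 minus 1B day 0 (log2) was -4.52 for Msln, -3.59 for Egr3, -3.54 for Atf3, -3.46 for Egr2, -3.26 for Krt19, -3.15 for Nr4a1, -3.03 for Tcim, -2.99 for Dppa5a, -2.96 for Spry4 and -2.08 for Krt18. With 1 array a line the difference was not tested. Dppa5a, a pluripotency gene, stood at 2.11 in 6C, 5.10 in 1B and 3.13 in parental cells, all low levels, and Krt18 at 6.09, 8.17 and 7.14. The receptor-signal brake Spry4 measured 7.42 in 6C and 10.39 in 1B, against 9.18 in parental cells, and Tcim 7.27 and 10.30 against 8.80. The 6C day 0 array was the dimmest and lies in another run than 1B day 0, and the part of either in these differences was not tested.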

How the results depend on the processing

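No paired analysis was possible because each group has 1 array. No difference of a named gene over 2-fold changed sign under quantile normalization or centring: of 494 differences of named genes, 463 kept their side of 2-fold after quantile normalization and 465 after centring. The shared counts stayed within 1.5 times under both scalings. For 6C, with quantile normalization, centring, the filter, 3-fold, 1.5-fold and 6C day 2 in place of day 0, the higher count was 1611, 1692, 274, 222, 2450 and 1601, and the lower count 2128, 2066, 1638, 1267, 6658 and 1458. In the same order, lower in 6C alone were 1169, 1180, 1154, 879, 3818 and 700, and higher in 6C alone 1101, 1130, 139, 132, 1263 and 1034. With the filter, 3-fold and 1.5-fold, 1B was higher at 458, 418 and 3268 clusters and lower at 576, 547 and 3314, both lines were lower at 466, 385 and 2448 and higher at 134, 90 and 1129, and 1B alone was lower at 109, 162 and 808 and higher at 306, 325 and 1747. With 1B after withdrawal, 1B was lower at 2365 and 1B alone lower at 844, and with 6C day 2 1B alone was lower at 732. On opposite sides with 6C lower were 44, 38, 18, 3, 392 and 17 clusters, and 40 with 1B after withdrawal. With 6C higher there were 8, 11, 1, 0, 58 and 14, and 10. limma called 11 higher and 67 lower after centring and 28 and 152 with the filter. The 6C medians that crossed 2-fold were cell cycle at 1.40 with quantile normalization, 1.21 with centring and 1.82 with 6C day 2, Wnt at -0.98 with quantile normalization and -0.90 with 6C day 2, immediate early at -0.64, -0.85 and -0.79, and the reprogramming factors at -0.11 with 6C day 2. With 1B after withdrawal, the fibroblast identity median was -1.09, the epithelial 1.36 and the p53 list's 1.04. The cause of these shifts was not tested.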

Other observations

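The most extreme points low in 6C alone were clusters with no gene symbol, looked up after the values were seen. Of 11 clusters over 4 log2 units below the parental array in 6C day 0 and within 2-fold in 1B, 10 had no symbol and 1 had several. The 10 without a symbol lay between 3.37 and 5.39 in 6C day 0 and between 8.68 and 11.55 in 1B day 0, against 8.38 to 11.68 in the parental array. They were also low in 6C at day 16 (1.76 to 5.80) and day 21 (4.61 to 7.02), and between 8.21 and 12.16 in the 8 further arrays. Day 16 lies in run 2 with the parental array, and days 0 and 21 in run 1.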
